A study of Homo sapiens
Mus musculus with 6 samples.

Results

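The genes described here encode collagen chains, laminin chains, fibronectin (FN1) and SPARC, as transcribed by the human cells of 6 mouse-human co-culture wells. They were taken from the human gene table by name: every symbol made of COL, a number, A and a number, every LAMA, LAMB or LAMC gene, FN1 and SPARC. This gave 58 of the 23855 human entries, namely 44 collagens, 12 laminins, FN1 and SPARC. Of these, 48 had at least 30 reads over the 6 wells (35 collagens, 11 laminins, FN1 and SPARC), 10 had fewer, and COL11A1 had 0. At the edge of that minimum, COL16A1, COL22A1 and COL6A6 had 35, 33 and 32 reads, while COL20A1 and COL8A1 had 23 and 15. The low-count filter of the test over all genes removed these 5 and the other members under 30 reads, so 45 members were tested.

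Each well joined a human HEK293-Flp-In line, an embryonic kidney line with a fixed integration site, to mouse C2C12 myoblasts for 6 h, and polyA RNA of both species was sequenced together. The human lines were HEK-Jag1Ndr, which carries the Nodder allele of the Notch ligand Jag1, HEK-Jag1WT, which carries wild-type Jag1, and HEK-control. The mouse lines were C2C12-Notch1, which carries full-length Notch1, and C2C12-control. All C2C12 cells had been transfected with an empty plasmid 18 h before the HEK cells were added. With 1 well per combination of lines, each HEK line is seen in 2 wells and each C2C12 line in 3. The Jag1 lines were kept under hygromycin and the Notch1 line under puromycin. The transgene, the drug and the history of each HEK line cannot be told apart, and the labels do not say how many clones a line holds. No separate cultures are named, and the p-values therefore cover no spread beyond that between these wells, some of which may be technical. With 1 well per combination, that spread also holds any effect particular to 1 pair of lines.

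Fibrillar collagens are secreted as triple helices and pack into fibrils, and FACIT collagens bind the fibril surface. Type IV collagens and laminins each polymerise into the networks of basement membranes, with a laminin built from an alpha, a beta and a gamma chain. Fibronectin is assembled into fibrils on integrins at the cell surface, and SPARC binds collagens and modulates cell-matrix contact. HEK293 cells are epithelial-like cells in culture with some neuronal traits, and they are not known as major matrix producers, whereas myoblasts secrete abundant fibrillar collagen.

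Human gene reads ranged from 4081452 to 10292878 per well. Mouse reads made up 29.6% to 36.5% of all gene reads beside C2C12-Notch1 and 47.2% to 52.7% beside C2C12-control. Reads on the mouse Jag1 gene, which mark the transgene, reached 9448 and 8878 per 1000000 human reads in the HEK-Jag1Ndr wells, 8701 and 8221 in the HEK-Jag1WT wells, and 27.2 and 26.95 in the HEK-control wells. Of 11 HEK marker genes, 10 had at least 30 human reads, SALL4 being the exception. Of 12 C2C12 myoblast markers, 5 had 0 human reads and 10 had under 30, CDH15 and TNNT1 being the exceptions. Of 5 fibroblast markers PDGFRB, DCN and THY1 had under 30 reads, while PDGFRA had 118 and LUM had 53. Of 4 endothelial markers PECAM1, CDH5 and KDR had under 30 reads, and VWF had 35. The C2C12, fibroblast and HEK lists all varied with the HEK line. Of the 10 tested HEK markers, 2 rose and 2 fell in HEK-Jag1Ndr against HEK-control, and 2 rose and 5 fell in HEK-Jag1WT. Over all tested genes 46.1% and 54.3% were called in these comparisons. The neurofilament gene NEFL had 94.6 and 103.6 CPM (human reads per 1000000 after TMM scaling of the libraries) in the HEK-Jag1Ndr wells, 746 and 778 in the HEK-Jag1WT wells, and 229 and 239.9 in the HEK-control wells. The summed RPKM of the HEK markers was 529.7 and 589 in the HEK-Jag1Ndr wells, 633 and 677 in the HEK-Jag1WT wells, and 595 and 572 in the HEK-control wells. Summed over the C2C12 markers the human RPKM was 17.4 and 18.8 in the HEK-Jag1Ndr wells, 36.9 and 37.5 in the HEK-Jag1WT wells, and 24.8 and 24.97 in the HEK-control wells, with 886 of the list's 1067 human reads on TNNT1. Summed over the 5 fibroblast markers it was 1.38 and 1.98 in the HEK-Jag1Ndr wells, 0.611 and 0.927 in the HEK-Jag1WT wells, and 1.01 and 1.35 in the HEK-control wells, and the part of these lists in the results below was not tested.

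Per length, LAMC1, FN1, COL4A1 and COL4A2 had the highest levels of the 58 members. As the mean deposited RPKM (reads per kilobase of gene and 1000000 mapped reads) over the 6 wells, LAMC1, the common laminin gamma chain, stood at 41.5 and FN1 at 41.1. The chains of the ubiquitous type IV network, COL4A1 and COL4A2, stood at 39.4 and 35.9 RPKM. SPARC followed at 25.6, LAMB2 at 24.2, LAMB1 at 23.9, COL2A1 at 19.4, LAMA4 at 17.8 and COL18A1 at 16.7 RPKM. COL2A1, the fibrillar collagen of cartilage, was thus the only fibrillar chain among the 10 highest members. Laminin and type IV chains were found at low levels too, with COL4A4 at 1.91, LAMA2 at 1.79 and COL4A3 at 1.05 RPKM. The type I chain COL1A1 averaged 3.06 RPKM and COL3A1, the chain of reticular fibres, 1.06 RPKM. COL1A2, the partner chain of type I collagen, had 3 reads in all 6 wells together.

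**Figure D1:**
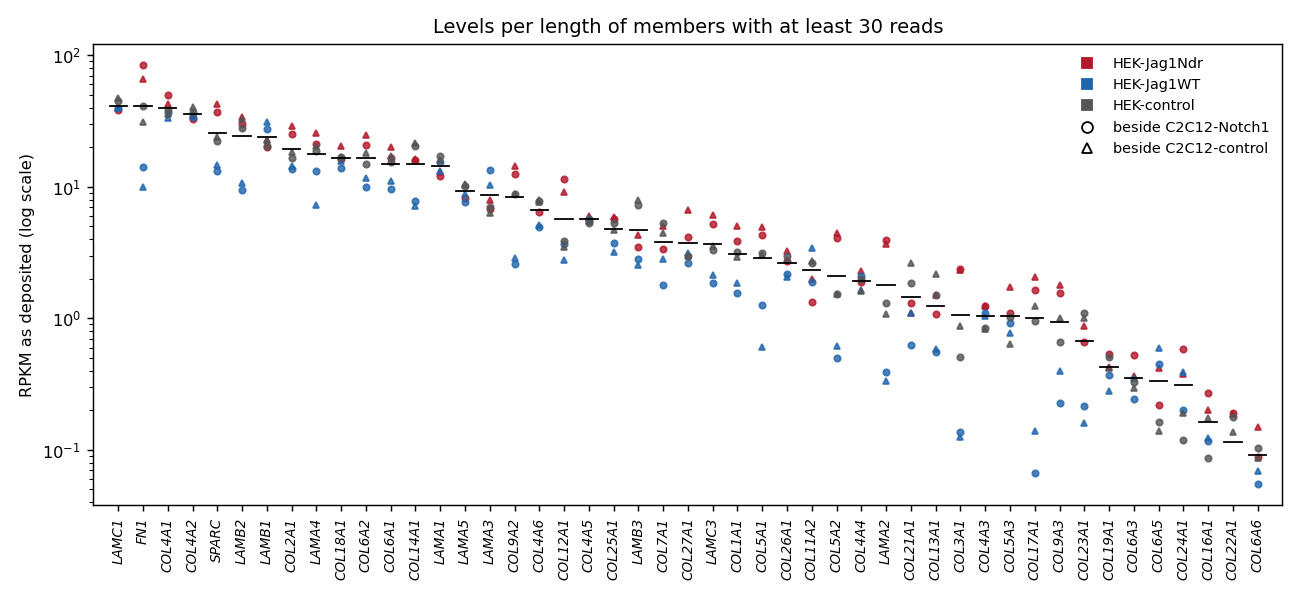
Deposited RPKM (log scale) of members with at least 30 reads, ranked by their mean over 6 wells (black bar), with 1 point per well coloured by HEK line and shaped by C2C12 line. LAMC1 and FN1 lead at 41.5 and 41.1 RPKM, and the FN1 points spread by HEK line while the LAMC1 points lie together; wells at 0, as for COL22A1 in HEK-Jag1WT, are not drawn.

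More of these genes were called higher than lower in HEK-Jag1Ndr cells against HEK-control, and more were called lower than higher in HEK-Jag1WT cells. Against HEK-control, edgeR's quasi-likelihood test with Benjamini-Hochberg adjustment over 13596 genes called 22 of the 45 tested members higher in HEK-Jag1Ndr and 8 lower, and 15 were not called. Over all genes that comparison called 46.1%, with 22.6% higher and 23.5% lower. In HEK-Jag1WT 3 members were higher, 29 were lower and 13 were not called, beside 54.3% of all genes called, 24.9% higher and 29.4% lower. HEK-Jag1Ndr against HEK-Jag1WT gave 30 higher, 4 lower and 11 not called, beside 57.7% of all genes, 29.2% higher and 28.5% lower.

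The median log2 difference of the tested members was 0.26 in HEK-Jag1Ndr against HEK-control, where the median over all tested genes was -0.01. It was -0.53 in HEK-Jag1WT against HEK-control, beside -0.03 over all genes, and 0.76 in HEK-Jag1Ndr against HEK-Jag1WT, beside -0.01. By more than 2-fold, 7 members rose and 0 fell in HEK-Jag1Ndr against HEK-control (the lowest value was -0.97, for LAMB3), where 2.88% of all genes rose and 2.81% fell by as much. In HEK-Jag1WT against HEK-control 1 rose and 15 fell, against 3.63% and 5.38% of all genes. HEK-Jag1Ndr exceeded HEK-Jag1WT by more than 2-fold for 17 members and fell below it for 0, against 6.44% and 3.91% of all genes. The last comparison shares its wells with the first ones and is not independent of them. The members together took 0.3425% and 0.3472% of human reads in the HEK-Jag1Ndr wells, 0.2173% and 0.215% in the HEK-Jag1WT wells, and 0.2879% and 0.2886% in the HEK-control wells.

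**Figure D2:**
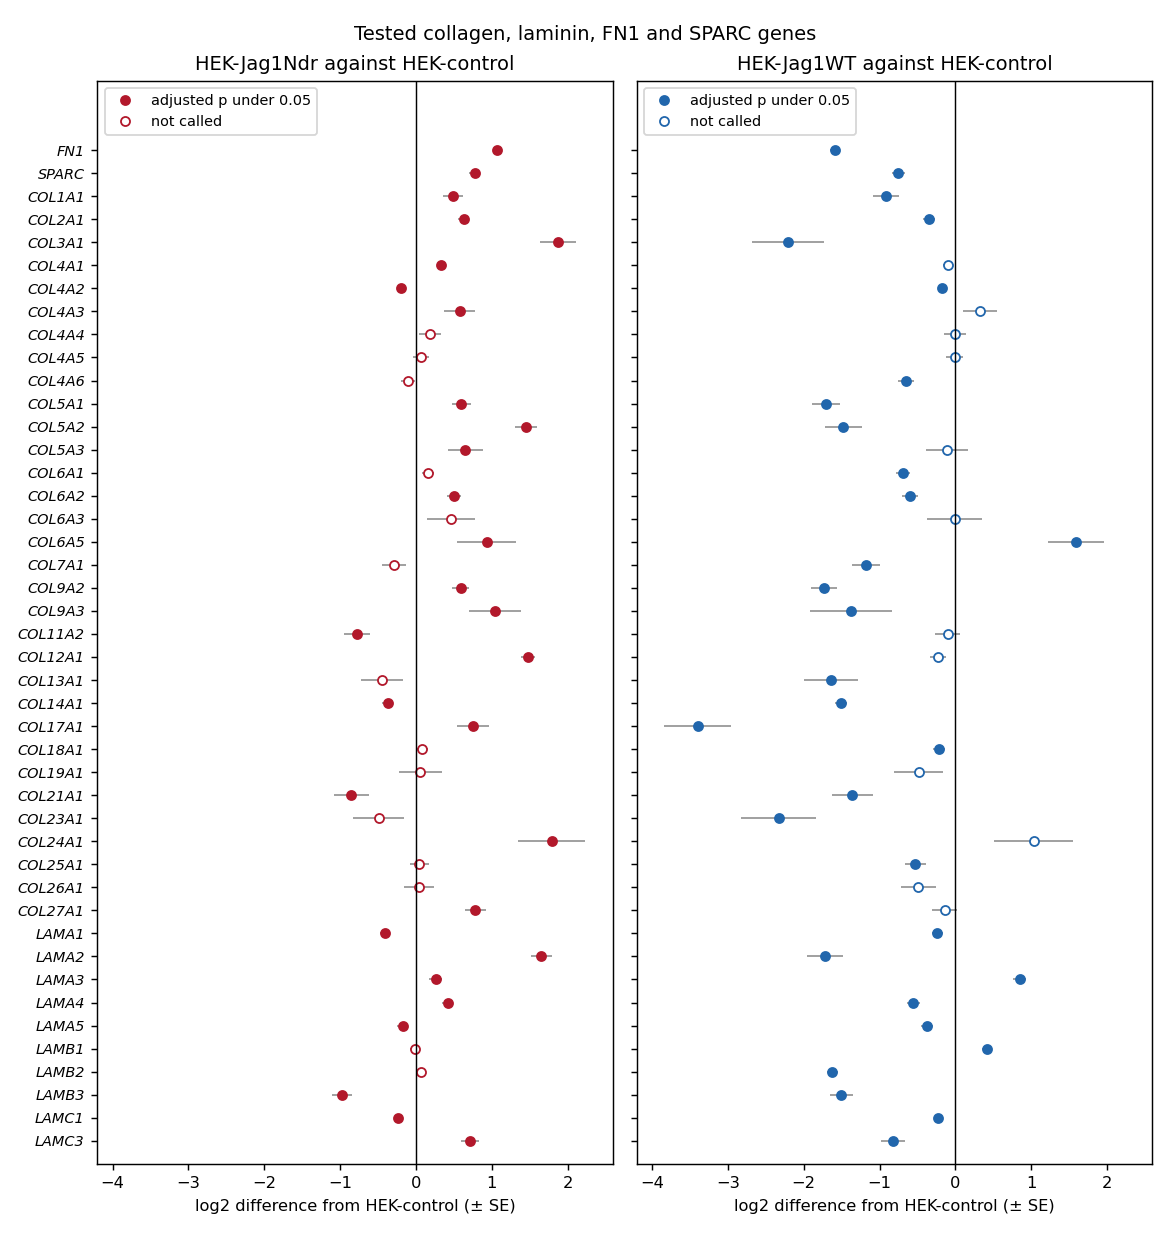
Log2 difference from HEK-control, with its standard error, for tested members in HEK-Jag1Ndr (left) and HEK-Jag1WT (right), from the edgeR fit over all 6 wells; filled points have an adjusted p under 0.05. Most filled points lie to the right of 0 in HEK-Jag1Ndr (22 of 30) and to the left of 0 in HEK-Jag1WT (29 of 32).

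FN1 had 686 and 521 CPM in the HEK-Jag1Ndr wells, 114.5 and 77.3 in the HEK-Jag1WT wells, and 329.5 and 247 in the HEK-control wells. The 3 lines did not overlap. Between any pair of these lines, the wells did not overlap for 66.75% to 73.48% of all 13596 tested genes. That share is for 1 pair of lines at a time and stands beside each such statement on a member below. The share of genes with all 3 lines apart was not counted. FN1 was 2.10-fold higher in HEK-Jag1Ndr than in HEK-control (log2 1.07 ± 0.05 SE, edgeR adjusted p = 2.29e-27) and 3.01-fold lower in HEK-Jag1WT than in HEK-control (log2 -1.59 ± 0.06 SE, edgeR adjusted p = 9.29e-32). Between HEK-Jag1Ndr and HEK-Jag1WT the difference was 6.32-fold. Without the C2C12 term in the model the HEK-Jag1Ndr call was lost, with a log2 difference of 1.05 and an adjusted p of 0.078.

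SPARC had 134.7 and 151 CPM in the HEK-Jag1Ndr wells, 47.2 and 51.7 in the HEK-Jag1WT wells, and 80.2 and 85.7 in the HEK-control wells. Again no well of a line reached into the range of another, beside the same share of all genes for each pair of lines. The log2 difference was 0.78 in HEK-Jag1Ndr against HEK-control (edgeR adjusted p = 2.13e-14), -0.75 in HEK-Jag1WT against HEK-control (4.68e-11) and 1.53 in HEK-Jag1Ndr against HEK-Jag1WT (1.34e-25).

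COL3A1, the rarest of the 3 marker genes, had 13.3 and 12.8 CPM in the HEK-Jag1Ndr wells, 0.746 and 0.76 in the HEK-Jag1WT wells, and 2.86 and 4.90 in the HEK-control wells. The HEK-Jag1WT values stand for 4 reads in each well. The groups did not overlap, with log2 differences of 1.88 ± 0.23 in HEK-Jag1Ndr against HEK-control (SE, edgeR adjusted p = 5.97e-10), -2.20 ± 0.48 in HEK-Jag1WT against HEK-control (7.61e-05) and 4.08 ± 0.35 in HEK-Jag1Ndr against HEK-Jag1WT (7.40e-16). COL5A2, which neighbours COL3A1 in the genome, moved alike. It had 28.7 and 30.4 CPM in the HEK-Jag1Ndr wells, 3.54 and 4.18 in the HEK-Jag1WT wells, and 10.7 and 10.5 in the HEK-control wells. Its log2 differences were 1.45, -1.48 and 2.93 in the same 3 comparisons, with edgeR adjusted p values of 6.98e-13, 3.92e-07 and 1.06e-20.

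**Figure D3:**
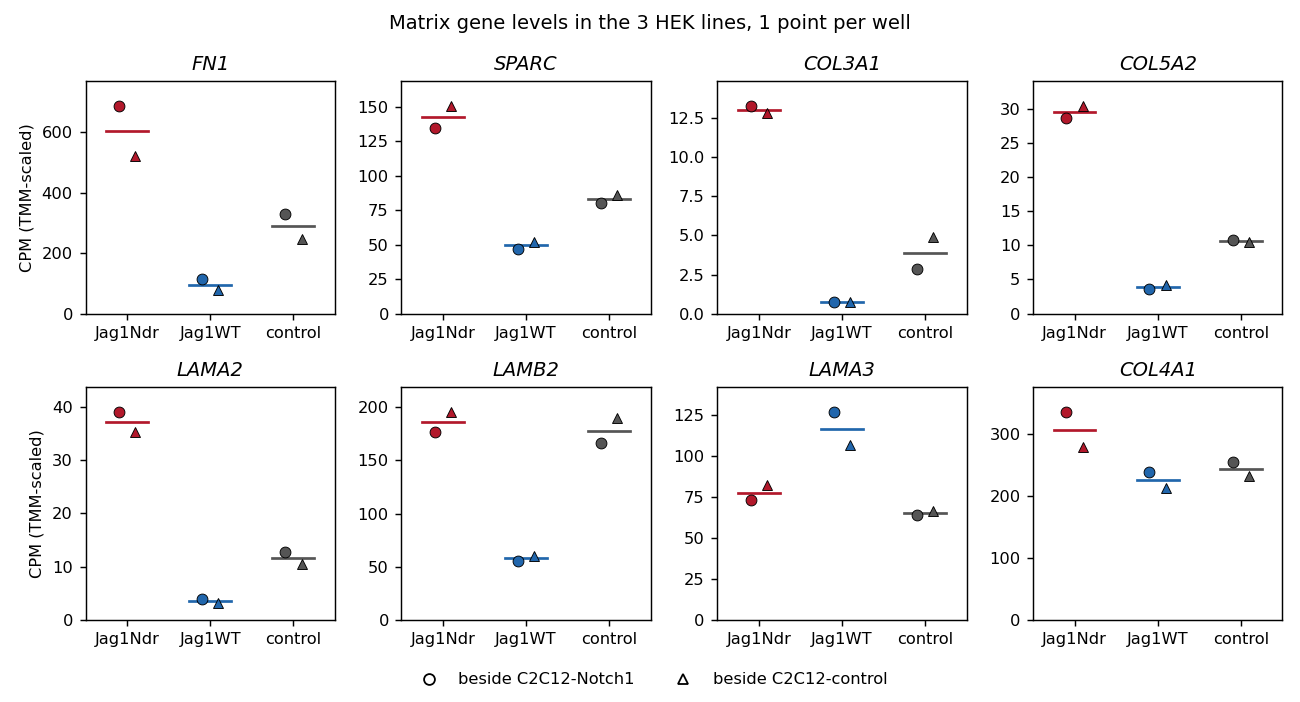
TMM-scaled CPM of 8 members in the 3 HEK lines, with 1 point per well (circles beside C2C12-Notch1, triangles beside C2C12-control) and a bar at the mean of the 2 wells; every vertical axis starts at 0. FN1, SPARC, COL3A1, COL5A2 and LAMA2 run highest in HEK-Jag1Ndr and lowest in HEK-Jag1WT, LAMB2 is low in HEK-Jag1WT, LAMA3 is high there, and COL4A1 varies less.

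The counts of each family, here and below, stand beside the shares over all genes, 46.1% called in HEK-Jag1Ndr and 54.3% in HEK-Jag1WT against HEK-control. Of the 11 fibrillar collagen genes, 9 were tested. In HEK-Jag1Ndr 8 rose and 1 fell against HEK-control, with a median log2 difference of 0.65, and in HEK-Jag1WT 5 fell and 4 were not called, with a median of -0.34. COL2A1 had 129.7 and 145 CPM in the HEK-Jag1Ndr wells, 69.0 and 71.1 in the HEK-Jag1WT wells, and 84.7 and 93.3 in the HEK-control wells, with no overlap between lines. Its log2 differences from HEK-control were 0.63 in HEK-Jag1Ndr (edgeR adjusted p = 2.81e-11) and -0.34 in HEK-Jag1WT (0.000271), and the second was not called without the HEK-Jag1WT well beside C2C12-control (0.0598).

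COL5A1, whose chain joins that of COL5A2 in type V collagen and helps to start fibrils, had 37.4 and 41.4 CPM in the HEK-Jag1Ndr wells, 10.8 and 5.13 in the HEK-Jag1WT wells, and 26.7 and 25.5 in the HEK-control wells. The log2 differences from HEK-control were 0.60 in HEK-Jag1Ndr and -1.70 in HEK-Jag1WT (edgeR adjusted p = 8.96e-05 and 2.78e-11), with -2.35 in HEK-Jag1WT when its well beside C2C12-Notch1 was left out. COL1A1 stood at 23.5 and 29.4 in the HEK-Jag1Ndr wells, 9.32 and 10.6 in the HEK-Jag1WT wells, and 19.0 and 17.4 in the HEK-control wells. That is a rise of 0.49 in HEK-Jag1Ndr and a change of -0.92 in HEK-Jag1WT on the log2 scale (edgeR adjusted p = 0.00209 and 9.32e-06). In HEK-Jag1Ndr against HEK-control DESeq2 called 9 of 32 tested collagens, 1 lower, where edgeR called 20, 4 lower. Over all genes DESeq2 called 2995 there and edgeR 6266. The DESeq2 collagen count leaves room for few of the HEK-Jag1Ndr calls of COL1A1, COL4A3, COL5A1, COL5A3, COL6A2, COL9A2 and COL17A1. These were not followed gene by gene in the other settings.

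COL5A3, COL24A1 and COL27A1 rose in HEK-Jag1Ndr by 0.65, 1.79 and 0.78 on the log2 scale and were not called in HEK-Jag1WT, where their log2 differences were -0.11, 1.03 and -0.14. COL24A1 rested on 77 reads over the 6 wells, and its HEK-Jag1Ndr call was lost in DESeq2 (log2 1.78, adjusted p = 0.10), in the 3 limma fits, and without the HEK-Jag1Ndr or the HEK-control well beside C2C12-Notch1 (log2 0.92 and 1.30), while it was 2.38 without the HEK-Jag1Ndr well beside C2C12-control. The type XI chain COL11A2 ran the other way. It had 8.39 and 12.3 CPM in the HEK-Jag1Ndr wells, 12.1 and 21.1 in the HEK-Jag1WT wells, and 16.8 and 16.9 in the HEK-control wells. The fall of 0.78 in HEK-Jag1Ndr against HEK-control (edgeR adjusted p = 0.000138) was lost in DESeq2 and the 3 limma fits and without the HEK-control well beside C2C12-Notch1 (log2 -0.41, adjusted p = 0.18). COL1A2 and COL11A1 were not tested.

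Among the 10 FACIT collagens, 6 were tested. In HEK-Jag1Ndr 3 rose and 2 fell, with a median log2 difference of 0.32, and in HEK-Jag1WT 4 fell, all by more than 2-fold, and 2 were not called, with a median of -1.37. COL9A2, a chain of the type IX collagen that coats cartilage fibrils, had 36.2 and 40.4 CPM in the HEK-Jag1Ndr wells, 7.27 and 7.98 in the HEK-Jag1WT wells, and 25.2 and 24.97 in the HEK-control wells. It rose by 0.59 in HEK-Jag1Ndr and fell by 1.74 in HEK-Jag1WT on the log2 scale (edgeR adjusted p = 1.99e-05 and 1.45e-13). Its partner chain COL9A3 had 92 reads in all and moved by 1.05 in HEK-Jag1Ndr and -1.38 in HEK-Jag1WT (edgeR adjusted p = 0.0093 and 0.0268), with 3 and 5 reads in the HEK-Jag1WT wells. The rise in COL9A3 was not called by DESeq2 (log2 1.06, adjusted p = 0.298), nor without the well of HEK-Jag1Ndr or that of HEK-control beside C2C12-Notch1 (0.244 and 0.222).

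COL12A1 and COL14A1, which encode a pair of closely related FACIT chains, split by line. COL12A1 had 131 and 97.7 CPM in the HEK-Jag1Ndr wells, 40.5 and 29.6 in the HEK-Jag1WT wells, and 43.5 and 40.6 in the HEK-control wells. COL14A1 had 105.6 and 104 in the HEK-Jag1Ndr wells, 50.7 and 44.8 in the HEK-Jag1WT wells, and 133.8 and 139 in the HEK-control wells. COL12A1 was thus high in HEK-Jag1Ndr (log2 1.48, edgeR adjusted p = 1.12e-22) and not called in HEK-Jag1WT (log2 -0.23, 0.0743), while COL14A1 was low in both Jag1 lines (log2 -0.37 in HEK-Jag1Ndr, 9.64e-06, and -1.51 in HEK-Jag1WT, 2.46e-24). COL21A1 also fell in both, by 0.85 and by 1.36 on the log2 scale, on 233 reads in all, and the HEK-Jag1Ndr call was lost without the C2C12-control well of HEK-Jag1Ndr or of HEK-control (adjusted p = 0.262 and 0.0607), in DESeq2 (0.184) and in the limma fits with a pseudocount of 0.1 (0.0611) or no filter (0.099). COL19A1 was not called in either line. COL22A1 had 17 reads in the HEK-Jag1Ndr wells together, 0 in the HEK-Jag1WT wells and 16 in the HEK-control wells. Against a floor of 3 reads over the HEK-Jag1WT wells, its share of human reads was 4.31-fold higher in HEK-Jag1Ndr and 3.91-fold higher in HEK-control. The counting error of the 17 and 16 reads is left out, so these are no lower bounds, and COL22A1 was not tested.

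The 6 type IV collagen genes moved little. In HEK-Jag1Ndr 2 rose, 1 fell and 3 were not called, and in HEK-Jag1WT 2 fell and 4 were not called. The medians were 0.12 and -0.05 on the log2 scale. Over all genes 46.1% and 54.3% were called. COL4A1 had 335 and 278 CPM in the HEK-Jag1Ndr wells, 239 and 213 in the HEK-Jag1WT wells, and 254 and 232 in the HEK-control wells. COL4A2, whose chain joins that of COL4A1 in a trimer and whose gene lies beside it, had 207 and 214 in the HEK-Jag1Ndr wells, 211 and 217 in the HEK-Jag1WT wells, and 233 and 250.0 in the HEK-control wells. In HEK-Jag1Ndr against HEK-control COL4A1 rose by 0.34 and COL4A2 fell by 0.20 on the log2 scale (edgeR adjusted p = 5.15e-07 and 0.00307). The COL4A2 call was lost in DESeq2 (0.125), in the limma fit with no filter (0.0722) and without the C2C12-control well of HEK-Jag1Ndr (0.0633). In HEK-Jag1WT COL4A2 had a log2 difference of -0.17 (edgeR adjusted p = 0.011), and that call was lost in 8 of the 16 other settings.

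COL4A6, expressed in kidney and smooth muscle basement membranes, fell by 0.65 in HEK-Jag1WT (edgeR adjusted p = 6.10e-07), with 33.4 and 33.2 CPM in the HEK-Jag1WT wells and 52.5 and 50.9 in the HEK-control wells. Its neighbour COL4A5 was not called, at 37.1 and 34.96 in the HEK-Jag1WT wells and 35.2 and 38.0 in the HEK-control wells. COL4A3 and COL4A4, whose chains meet that of COL4A5 in the glomerular basement membrane, were not called in HEK-Jag1WT. COL4A3 rose by 0.58 in HEK-Jag1Ndr on 329 reads in all (edgeR adjusted p = 0.0162).

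Type VI collagen forms beaded microfilaments from a COL6A1, a COL6A2 and a further chain. COL6A2 had 70.2 and 85.5 CPM in the HEK-Jag1Ndr wells, 34.9 and 37.6 in the HEK-Jag1WT wells, and 51.8 and 57.3 in the HEK-control wells. COL6A1 had 71.3 and 83.5 in the HEK-Jag1Ndr wells, 40.5 and 45.4 in the HEK-Jag1WT wells, and 66.2 and 71.7 in the HEK-control wells. Both fell in HEK-Jag1WT against HEK-control, by 0.60 and 0.69 on the log2 scale (edgeR adjusted p = 1.47e-06 and 6.56e-09), and COL6A2 rose by 0.50 in HEK-Jag1Ndr (1.96e-06), where COL6A1 was not called (log2 0.16, 0.115). COL6A3 was rare, with 125 reads in all, and not called. COL6A5 was higher in both Jag1 lines, at 2.14 and 3.90 CPM in the HEK-Jag1Ndr wells, 4.10 and 5.51 in the HEK-Jag1WT wells, and 1.58 and 1.22 in the HEK-control wells. Its rise of 0.93 in HEK-Jag1Ndr was marginal (edgeR adjusted p = 0.0438) and was lost in 10 of the 16 other settings, while that of 1.60 in HEK-Jag1WT had an adjusted p of 0.000212. Without the HEK-control well beside C2C12-Notch1 these log2 differences were 1.57 in HEK-Jag1Ndr and 2.23 in HEK-Jag1WT.

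All 4 transmembrane collagen genes fell in HEK-Jag1WT against HEK-control, 3 of them by more than 2-fold, with a median log2 difference of -1.99. COL17A1, the chain that spans hemidesmosomes, had 9.31 and 11.4 CPM in the HEK-Jag1Ndr wells, 0.373 and 0.76 in the HEK-Jag1WT wells, and 5.42 and 6.86 in the HEK-control wells. The HEK-Jag1WT wells held 2 and 4 reads. COL17A1 rose by 0.76 in HEK-Jag1Ndr (edgeR adjusted p = 0.00279) and had a log2 difference of -3.40 ± 0.44 in HEK-Jag1WT (SE, 1.41e-09), the lowest of any tested member. COL13A1, COL23A1 and COL25A1 changed by -1.64, -2.33 and -0.53 in HEK-Jag1WT and were not called in HEK-Jag1Ndr (log2 -0.45, -0.49 and 0.05).

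Of the other 8 collagens, 3 were tested, COL7A1, COL18A1 and COL26A1, and in HEK-Jag1Ndr against HEK-control their log2 differences of -0.29, 0.09 and 0.04 were not called. COL7A1, the chain of anchoring fibrils, changed by -1.18 in HEK-Jag1WT (edgeR adjusted p = 7.38e-05), with 16.4 and 25.3 CPM in the HEK-Jag1WT wells and 48.8 and 40.4 in the HEK-control wells. COL18A1, a basement membrane collagen that releases endostatin, had 87.1 and 107 CPM in the HEK-Jag1Ndr wells, 75.3 and 82.1 in the HEK-Jag1WT wells, and 91.1 and 88.6 in the HEK-control wells. The HEK-Jag1WT value of -0.22 (edgeR adjusted p = 0.0231) was called in 5 of the 16 other settings.

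The laminin chains did not move together. Of 11 tested genes, 4 rose and 4 fell in HEK-Jag1Ndr against HEK-control, with a median log2 difference of -0.02, and 2 rose and 8 fell in HEK-Jag1WT, with a median of -0.37. Among the alpha chains, LAMA2, the alpha chain of muscle basement membrane, had 39.1 and 35.3 CPM in the HEK-Jag1Ndr wells, 3.92 and 3.23 in the HEK-Jag1WT wells, and 12.8 and 10.5 in the HEK-control wells. It was 3.15-fold higher in HEK-Jag1Ndr (log2 1.65, edgeR adjusted p = 3.13e-16) and 3.29-fold lower in HEK-Jag1WT (log2 -1.72, 7.36e-09) than in HEK-control. LAMA4, typical of vessel walls, had 114.6 and 106 in the HEK-Jag1Ndr wells, 60.4 and 52.1 in the HEK-Jag1WT wells, and 84.4 and 82.0 in the HEK-control wells, and so kept the same order of lines on a smaller scale (log2 0.42 and -0.56). In limma fits of the RPKM the HEK-Jag1Ndr call of LAMA4 was lost (adjusted p = 0.434 to 0.615), and its RPKM in the HEK-Jag1WT wells were 13.1 and 7.23.

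LAMA3, the alpha chain of epithelial anchoring laminin, rose in both Jag1 lines. It had 73.1 and 82.3 CPM in the HEK-Jag1Ndr wells, 127.0 and 107 in the HEK-Jag1WT wells, and 64.1 and 66.3 in the HEK-control wells. It rose by 0.85 in HEK-Jag1WT (edgeR adjusted p = 2.22e-13) and by 0.26 in HEK-Jag1Ndr (0.009). LAMB3, a beta chain of that laminin, fell in both lines instead, with 14.3 and 17.4 in the HEK-Jag1Ndr wells, 11.4 and 10.6 in the HEK-Jag1WT wells, and 30.2 and 32.1 in the HEK-control wells. LAMA1, an early embryonic chain, and LAMA5, the widespread adult chain, were lower in both Jag1 lines, by 0.41 and 0.17 in HEK-Jag1Ndr and by 0.24 and 0.37 in HEK-Jag1WT on the log2 scale. The LAMA5 call in HEK-Jag1Ndr had an adjusted p of 0.0421 and was lost in 11 of the 16 other settings.

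The 2 abundant beta chains moved in opposite directions in HEK-Jag1WT. LAMB2 had 176 and 195 CPM in the HEK-Jag1Ndr wells, 55.2 and 60.2 in the HEK-Jag1WT wells, and 166 and 190.0 in the HEK-control wells. LAMB1 had 118 and 131 in the HEK-Jag1Ndr wells, 159.6 and 176 in the HEK-Jag1WT wells, and 119.9 and 132 in the HEK-control wells. LAMB2 was 3.07-fold lower in HEK-Jag1WT than in HEK-control (edgeR adjusted p = 5.82e-28) and LAMB1 was higher by 0.42 on the log2 scale (2.87e-07). Neither was called in HEK-Jag1Ndr against HEK-control (log2 0.07 for LAMB2, edgeR adjusted p = 0.396, and -0.02 for LAMB1, 0.876).

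LAMC1 differed little, at 307.5 and 309.6 CPM in the HEK-Jag1Ndr wells, 312 and 307 in the HEK-Jag1WT wells, and 356 and 372 in the HEK-control wells. It fell by 0.24 in HEK-Jag1Ndr and by 0.23 in HEK-Jag1WT on the log2 scale (edgeR adjusted p = 0.000108 and 0.000156), the second call being lost without the HEK-Jag1WT well beside C2C12-control (0.0952). LAMC3, a gamma chain known from brain and skin, followed LAMA2 and FN1 in the order of the lines, with 32.7 and 37.2 in the HEK-Jag1Ndr wells, 11.4 and 12.7 in the HEK-Jag1WT wells, and 20.5 and 21.8 in the HEK-control wells (log2 0.71 in HEK-Jag1Ndr and -0.82 in HEK-Jag1WT).

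The pattern of HEK lines was also read beside each C2C12 line separately. The order of the lines was the same beside both for 34 of the 48 members with at least 30 reads, and beside both it ran HEK-Jag1Ndr, HEK-control, HEK-Jag1WT from high to low for 21 of the 48. Of all 14230 genes with at least 30 reads, 55.9% had the same order beside both C2C12 lines and 12.5% had that one. In single wells the log2 ratio of FN1 in HEK-Jag1Ndr over HEK-control was 1.06 beside C2C12-Notch1 and 1.07 beside C2C12-control, and that of COL3A1 was 2.15 and 1.28. In HEK-Jag1WT over HEK-control the ratios were -1.52 and -1.67 for FN1 and -1.45 and -2.24 for COL3A1. These are single wells and were not tested. Each ratio was taken after a few reads were added to both counts. With 4 COL3A1 reads in each HEK-Jag1WT well, this made its ratios smaller in size than those of its CPM.

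Between the C2C12 partners far fewer members differed. Beside C2C12-Notch1 edgeR called 3 of 45 members higher than beside C2C12-control, namely FN1, COL12A1 and COL4A1, and 0 lower, while over all genes it called 4.84%, 3.07% higher and 1.77% lower. Unadjusted, 10 members were lower with edgeR p under 0.05. The share of all genes at this unadjusted threshold was not counted, so the shares above do not stand beside it. At that threshold DESeq2 had 0 members lower and limma on log2(RPKM + 1) had 6, and both called 0 lower after adjustment. FN1 had 686, 114.5 and 329.5 CPM in the HEK-Jag1Ndr, HEK-Jag1WT and HEK-control wells beside C2C12-Notch1, and 521, 77.3 and 247 in the same lines beside C2C12-control. It was higher beside C2C12-Notch1 within each HEK line, by 0.44 on the log2 scale (edgeR adjusted p = 4.93e-11).

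The FN1 call was lost in the 3 limma fits (adjusted p = 0.0587 to 0.226), after mouse reads were taken off (log2 0.66, 0.265) and without the HEK term (1). COL12A1 stood at 131, 40.5 and 43.5 CPM beside C2C12-Notch1 and at 97.7, 29.6 and 40.6 beside C2C12-control, in the same order of HEK lines (log2 0.35, edgeR adjusted p = 0.00219). COL4A1 stood at 335, 239 and 254 beside C2C12-Notch1 and at 278, 213 and 232 beside C2C12-control (log2 0.19, edgeR adjusted p = 0.00566). Both were higher beside C2C12-Notch1 in each HEK line, but neither was called by DESeq2 (adjusted p = 0.268 and 0.218), by limma, or without either HEK-Jag1Ndr well (0.389 to 0.394 for COL12A1 and 0.317 to 0.320 for COL4A1). COL4A1 also lost its call without either HEK-Jag1WT well (0.1165 and 0.117). By more than 2-fold, 0 members rose and 0 fell, beside 0.00736% and 0.0883% of all genes. The mouse share of the reads differed between the partners too, as given above, and its part in these differences was not tested.

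Mouse cells in the same wells transcribed many of the same genes far more strongly, and human reads are given here beside mouse reads of the same gene name. Of 56 members with a mouse gene of the same name, 24 had more mouse than human reads. For COL1A2 that share was small, as mouse Col1a2 had 42784 reads and human COL1A2 had 3, or 0.00701% as many. COL3A1 had 236 human and 66333 mouse reads, so its human reads were 0.356% of the mouse ones, and in the HEK-Jag1WT wells it had 4 human reads in each well beside 4763 and 12287 mouse reads. FN1 and SPARC had 11.6% and 4.67% as many human as mouse reads, and COL5A1 and COL5A2 4.48% and 2.34%. Across the HEK lines mouse Fn1 stayed between 493 and 589 RPKM beside C2C12-Notch1 and between 510.4 and 547 beside C2C12-control, and mouse Sparc and Col3a1 between 1322 and 1337 and between 363 and 389.5 beside C2C12-Notch1. Mouse Col1a1 ranged from 23.7 to 26.3 RPKM beside C2C12-Notch1 and from 199 to 205 beside C2C12-control, a gap that human COL1A1 did not share (human log2 -0.15, edgeR adjusted p = 0.555).

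The 12 C2C12 markers together had 1.19% as many human as mouse reads, and TNNT1 and CDH15 held 886 and 127 of the human ones. Taking that share of each mouse gene's reads off its human namesake left 43 members for testing, without COL3A1 and COL6A3. FN1 then had log2 differences of 1.19 in HEK-Jag1Ndr (edgeR adjusted p = 0.0338) and -1.97 in HEK-Jag1WT (0.0171) against HEK-control, and SPARC 0.98 and -1.06. COL5A1 lost its HEK-Jag1WT call (log2 -2.48, adjusted p = 0.159), and the call between HEK-Jag1Ndr and HEK-Jag1WT was lost too (log2 3.21, 0.0804). COL5A2 moved further than these. In HEK-Jag1Ndr its log2 difference was 2.79 against HEK-control (edgeR adjusted p = 1.84e-13), in place of 1.45. It had 19 and 22 human reads beside 2226 and 3859 mouse reads in the HEK-Jag1WT wells, and none of those human reads remained. The fitted difference between HEK-Jag1Ndr and HEK-Jag1WT was then 10.05 in place of 2.93, which is no bound. The COL5A2 sizes after this step depend on the share taken off, and most human reads behind that share were of TNNT1. For COL1A2 the human reads were 0.00701% of the mouse ones. Whether mouse reads entered the human COL5A2 counts was not tested.

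**Figure D4:**
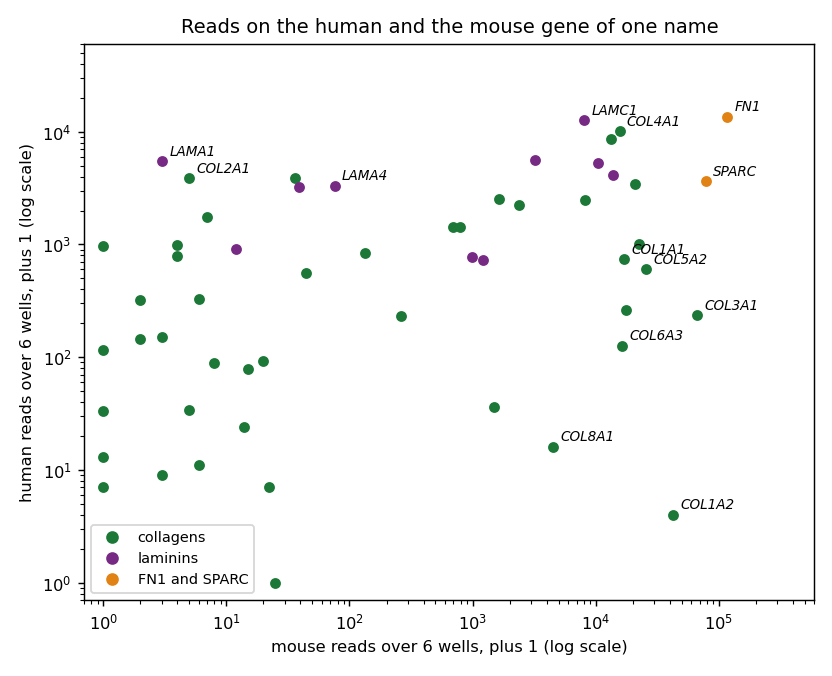
Human against mouse reads over the 6 wells, each plus 1 on a log scale, for the members with a mouse gene of the same name, coloured by family. COL1A2 lies far to the lower right with 3 human and 42784 mouse reads, and COL2A1 and LAMA1 lie at the upper left with almost no mouse reads.

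The libraries do not mark strand, so reads of overlapping genes cannot be told apart. By the RefSeq annotation of GRCh38, used for neighbours only, the spans of several tested members overlap another gene with at least 30 human reads, among them FN1 with ATIC, COL18A1 with SLC19A1, COL4A4 with RHBDD1 and COL9A3 with TCFL5. ATIC, a purine synthesis enzyme, had log2 differences of 0.63 in HEK-Jag1Ndr (edgeR adjusted p = 4.36e-16) and 0.01 in HEK-Jag1WT, smaller than those of FN1. TCFL5 was not called in any comparison of HEK lines, unlike COL9A3. SLC19A1, a folate carrier, had a log2 difference of -0.23 in HEK-Jag1WT against HEK-control (edgeR adjusted p = 0.000884), close to the -0.22 of COL18A1. In HEK-Jag1Ndr it was -0.31 (8.37e-06) beside 0.09 for COL18A1. Which of this pair the HEK-Jag1WT value of COL18A1 belongs to cannot be told apart. RHBDD1 was not called in any comparison, nor was COL4A4. In bulk RNA, fewer cells of a kind and less RNA per cell cannot be told apart.

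Genes that make, hold, bind or cut the matrix proteins were also read, from lists chosen by function. Their counts stand beside the shares over all genes given above, 46.1% called in HEK-Jag1Ndr (22.6% higher, 23.5% lower) and 54.3% in HEK-Jag1WT (24.9% higher, 29.4% lower). Of 24 tested genes for collagen folding, modification and crosslinking, 5 rose and 4 fell in HEK-Jag1Ndr against HEK-control and 3 rose and 14 fell in HEK-Jag1WT, with medians of 0.01 and -0.26 on the log2 scale. SERPINH1, the collagen chaperone, was lower in both, by 0.68 in HEK-Jag1Ndr (edgeR adjusted p = 4.30e-13) and 0.85 in HEK-Jag1WT (4.65e-16). The lysine oxidase LOX rose by 1.45 in HEK-Jag1Ndr (1.01e-16), and COLGALT1 and PLOD2, which glycosylate and hydroxylate collagen lysines, fell by 0.77 and 0.75 in HEK-Jag1WT.

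Among 12 tested basement membrane partners and SPARC relatives, 3 rose and 4 fell in HEK-Jag1Ndr and 2 rose and 6 fell in HEK-Jag1WT (medians 0.19 and -0.26). PXDN, the peroxidase that crosslinks type IV collagen, had a log2 difference of -2.55 in HEK-Jag1WT against HEK-control and of 2.80 in HEK-Jag1Ndr against HEK-Jag1WT (edgeR adjusted p = 2.05e-30 and 1.08e-33). The nidogen NID1, which links laminin to type IV collagen, was lower in both lines, by 0.50 in HEK-Jag1Ndr and 0.69 in HEK-Jag1WT.

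Of 24 tested receptors of collagen, laminin and fibronectin, 8 rose and 5 fell in HEK-Jag1Ndr, and 15 fell and 9 were not called in HEK-Jag1WT (medians 0.01 and -0.56). CD44, a hyaluronan and matrix receptor, rose by 0.64 in HEK-Jag1Ndr and had a log2 difference of -1.65 in HEK-Jag1WT (edgeR adjusted p = 4.08e-10 and 8.25e-21). The laminin receptors BCAM and ITGA7 fell in HEK-Jag1WT by 1.22 and 1.18, and ITGA6 rose by 0.65 in HEK-Jag1Ndr. The collagen receptor DDR1 fell by 1.03 in HEK-Jag1Ndr (2.98e-15).

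Matrix proteases and their inhibitors, 16 tested, rose in 5 and fell in 5 cases in HEK-Jag1Ndr and rose in 2 and fell in 9 in HEK-Jag1WT (medians -0.26 and -0.52), beside 46.1% and 54.3% of all genes called. The membrane-bound protease MMP15 rose by 2.10 in HEK-Jag1Ndr and changed by -1.96 in HEK-Jag1WT (edgeR adjusted p = 5.87e-41 and 1.21e-30). ADAMTS1 fell by 1.69 in HEK-Jag1WT, and the inhibitor TIMP1 rose by 0.92 in HEK-Jag1Ndr.

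Of 16 tested TGF-beta ligands, binding proteins and targets, 10 rose and 2 fell in HEK-Jag1Ndr, and 2 rose and 6 fell in HEK-Jag1WT (medians 0.51 and -0.12). The matricellular genes CYR61 and CTGF rose by 1.79 and 1.70 in HEK-Jag1Ndr (edgeR adjusted p = 7.42e-30 and 8.90e-29). CYR61 also rose in HEK-Jag1WT, by 0.75, where LTBP1 fell by 1.13. Beside C2C12-Notch1 against C2C12-control, 6 of these 16 rose and 1 fell, where 3.07% of all genes rose and 1.77% fell, led by THBS1 at 0.67, CYR61 at 0.55 and ID1 at 1.03 on the log2 scale (edgeR adjusted p = 9.69e-13, 2.23e-10 and 1.11e-05), with a list median of 0.10. No cause of these shared directions was tested.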

How the data were processed

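PolyA RNA of 6 co-culture wells was sequenced from TruSeq libraries without strand information, per the labels' protocols. The submitters' processing notes name STAR, hg19 and mm9. How reads were counted and assigned to a species is not given in the sources used here. Both tables, human and mouse, hold counts and RPKM for each gene and well as the authors deposited them. The RPKM are not a plain rescaling of the counts in every gene, so values between wells are TMM-scaled CPM and levels between genes are RPKM.

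Of 24303 human entries 448 exact repeats were left out. The counts were fitted with edgeR 4.0.16 (R 4.3.3): TMM scaling, filterByExpr, robust quasi-likelihood test, Benjamini-Hochberg adjustment at 0.05 over all 13596 genes tested. The model was additive in HEK line and C2C12 line over 6 wells, with 2 residual degrees of freedom and a common biological coefficient of variation of 3.48%, so an effect particular to 1 pair of lines counts as spread. DESeq2 1.42.0, limma 3.58.1 on log2(RPKM + a pseudocount of 1 or 0.1), other scalings and filters, leaving out each well and taking off mouse reads were alternatives. The fit was tested on simulated data.

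The members, the lists and their tests were chosen with earlier results of these data known. Named members were FN1, SPARC and COL3A1, the 10 highest by RPKM and up to 10 called in each direction per comparison; of the related lists, up to 3 called genes per comparison by smallest p. Other members were named after their values were seen, to account for each family. Depth was 4081452 to 10292878 human reads per well, and the floor for COL22A1 covers the counting error of the HEK-Jag1WT wells only. Symbols were matched to RefSeq genes of GRCh38 for 58 of 58 members. The values of 1 tested member are not reported here; it is kept in the counts.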

Additional observations from a re-analysis of the deposited data

Results flagged for a closer look

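For 18 of 132 pairs of single-well log2 ratios, 1 pair per reported member and comparison of HEK lines, the ratio had opposite signs beside the 2 C2C12 lines. Before each ratio 2 reads were added to both counts. In CPM, without added reads, COL19A1 in HEK-Jag1Ndr over HEK-control and COL4A4 in HEK-Jag1WT over HEK-control had the same sign beside both C2C12 lines. So did COL21A1 and COL24A1 in HEK-Jag1Ndr over HEK-Jag1WT. Each ratio rests on 2 wells, and no difference between partners was tested. None of the 18 was called by edgeR in the comparison of lines it belongs to.

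In HEK-Jag1Ndr over HEK-control, COL7A1 had a log2 ratio of -0.633 beside C2C12-Notch1 and 0.170 beside C2C12-control. COL4A4 stood at -0.0593 beside C2C12-Notch1 and 0.476 beside C2C12-control. COL18A1 was -0.0630 beside C2C12-Notch1 and 0.265 beside C2C12-control. COL4A6 had -0.242 beside C2C12-Notch1 and 0.0545 beside C2C12-control. COL26A1 gave -0.0907 beside C2C12-Notch1 and 0.188 beside C2C12-control. COL19A1 came to 0.0905 beside C2C12-Notch1 and -0.0419 beside C2C12-control.

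In HEK-Jag1WT over HEK-control, COL11A2 had a log2 ratio of -0.440 beside C2C12-Notch1 and 0.305 beside C2C12-control. COL6A3 stood at -0.272 beside C2C12-Notch1 and 0.256 beside C2C12-control. COL5A3 was -0.101 beside C2C12-Notch1 and 0.219 beside C2C12-control. COL4A5 had 0.0837 beside C2C12-Notch1 and -0.121 beside C2C12-control. COL27A1 gave -0.165 beside C2C12-Notch1 and 0.0285 beside C2C12-control. COL4A4 came to 0.0684 beside C2C12-Notch1 and -0.0032 beside C2C12-control.

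In HEK-Jag1Ndr over HEK-Jag1WT, COL24A1 had a log2 ratio of 1.348 beside C2C12-Notch1 and -0.0317 beside C2C12-control. COL21A1 stood at 0.996 beside C2C12-Notch1 and -0.0179 beside C2C12-control. COL6A3 was 0.903 beside C2C12-Notch1 and -0.0682 beside C2C12-control. COL4A4 had -0.128 beside C2C12-Notch1 and 0.479 beside C2C12-control. COL4A5 gave -0.0157 beside C2C12-Notch1 and 0.154 beside C2C12-control. LAMC1 came to -0.0205 beside C2C12-Notch1 and 0.0098 beside C2C12-control.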

How the results depend on the processing

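In HEK-Jag1Ndr against HEK-control, DESeq2 called 17 members (13 higher, 4 lower) and limma on log2(RPKM + 1) called 20 (14 higher, 6 lower). There limma with a pseudocount of 0.1 called 18 (13 higher, 5 lower) and limma with no filter called 15 (12 higher, 3 lower). In HEK-Jag1Ndr against HEK-Jag1WT, 2 members were lower in DESeq2 and in the 3 limma fits. For the C2C12 partner, library size scaling gave 1 lower, DESeq2 gave 1 call (1 higher), and the 3 limma fits and the fit without the HEK term gave 0 (0 higher). Without 1 well at a time, counts ranged from 24 to 29 in HEK-Jag1Ndr against HEK-control (17 to 21 higher, 6 to 8 lower), 26 to 31 in HEK-Jag1WT against HEK-control (3 to 4 higher, 23 to 28 lower), 28 to 34 between the Jag1 lines (25 to 31 higher, 3 to 4 lower) and 1 to 8 for the partner (1 to 3 higher, 0 to 5 lower). The partner count rose without either HEK-control well and fell without either HEK-Jag1Ndr well, and so did the partner calls over all genes. Single values changed sign in 9 cases, all small: LAMB1 in HEK-Jag1Ndr against HEK-control (0.0042 with RLE scaling, 0.0043 in DESeq2), COL18A1 there (-0.0241 and -0.0188 without the C2C12-control well of HEK-Jag1Ndr or HEK-control, with a range of -0.0241 to 0.2381 over wells left out), and for the partner SPARC (0.101 after mouse reads were taken off), COL3A1 (0.0461 and 0.0582 without either HEK-control well, range -0.6659 to 0.0582) and LAMC1 (0.0045 and 0.0094 likewise, range -0.0333 to 0.0094). Of the other single values 1120 kept sign and call, 111 lost the call and 4 gained it. The single values cover only the members named by the rule given above, each in the comparisons it was named for. That rule took the largest called changes and the highest levels. Other calls were not followed through the settings, such as COL9A3 in HEK-Jag1WT and COL1A1, COL4A3 and COL5A3 in HEK-Jag1Ndr against HEK-control. Over all genes DESeq2 called 2995, 4267 and 4866 in HEK-Jag1Ndr and HEK-Jag1WT against HEK-control and between the Jag1 lines, and 71 for the partner, where edgeR called 6266, 7379, 7843 and 658. Limma with a pseudocount of 1, of 0.1 and with no filter called 4842, 4778 and 3586 of all genes in HEK-Jag1Ndr against HEK-control. For the partner these fits called 25, 27 and 6 of all genes. With library size scaling 41.8% of the partner calls were higher, against 63.4% with TMM. The cause of these changes was not tested. The wells carry no replicate numbers in the labels. The HEK lines were matched by C2C12 line through the C2C12 term of the model. Low counts limit COL3A1, COL9A3, COL17A1 and COL23A1 in HEK-Jag1WT.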
